A study of Macaca fascicularis with 2 samples.

Results

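The F-box genes are the genes whose symbols begin with FBXO, FBXL or FBXW followed by a number, and 61 of the 28175 genes named in the files belong to them by that rule. They include FBXO32 (atrogin-1) and FBXO40, which are known from skeletal muscle. The study sequenced polyadenylated RNA of gastrocnemius, a calf muscle, from Macaca fascicularis, the cynomolgus macaque. One non-lean library came from a high fat diet and 1 lean library from a chow diet. The labels give no age, sex, number of animals per library or measure of body condition. The comparison asks how gene expression differs between obese and lean muscle. With 1 library per group there is no replicate check on any difference, the groups were not tested against each other, and every interval below covers counting error only.

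An F-box protein is the part of an SCF ubiquitin ligase that chooses the substrate. Its F-box segment binds the adaptor SKP1, which joins it to the cullin CUL1 and the RING protein RBX1, and the ligase then tags the bound substrate with ubiquitin for the proteasome. FBXO proteins carry varied substrate-binding parts, FBXL proteins carry leucine-rich repeats and FBXW proteins carry WD40 repeats. In skeletal muscle, FBXO32 is best known because its mRNA rises strongly in fasting, denervation and other forms of atrophy in rodents, and FBXO40 is known as a muscle ligase for the insulin receptor substrate IRS1 from work in mouse and cell culture.

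The non-lean library held 12732004 counts and the lean library 15983371. After scaling by the trimmed mean of M-values, 1 count was worth 0.0748 CPM (scaled counts per 1000000) in the non-lean library and 0.0657 CPM in the lean library. Of the 8 muscle fibre markers looked up, all were abundant, from 6216 to 60120 CPM in the non-lean library and from 6153 to 80380 CPM in the lean library. Summed, these 8 had 159800 CPM in the non-lean library and 210400 CPM in the lean library, and 6 of their intervals lay below 0 and 2 above. The summed level of each list of markers of other cells was also below that of the lean library in the non-lean one. The 5 fibroblast markers summed to 373 CPM in the non-lean library and 890 CPM in the lean library, and the 5 macrophage markers to 23.1 CPM in the non-lean and 68.8 CPM in the lean library. The 4 adipocyte markers summed to 3.07 CPM in the non-lean and 21.2 CPM in the lean library, and the 3 endothelial markers to 160 CPM in the non-lean and 214 CPM in the lean library. The 3 satellite cell markers summed to 4.41 CPM in the non-lean and 9.66 CPM in the lean library, and the 3 lymphocyte markers to 1.65 CPM in the non-lean and 2.83 CPM in the lean library. The B cell marker MS4A1 had 0 counts in both. The part of these cells in the F-box values was not tested. In bulk tissue, fewer cells of a type and less RNA per cell cannot be told apart.

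No tested F-box gene was 2-fold apart between the libraries, except FBXL22 under total count scaling (log2 ratio 1.03), where 12.1% of 13725 tested genes were. Of the 61 members, 48 had a mean of at least 1 CPM over both libraries and are called tested here. Among these 48, 0 were at least 2-fold higher or lower in the non-lean library with a counting interval off 0, against 12.1% of the 13707 tested genes. Among genes with a mean of at least 5 CPM, where low counts weigh less, the count was 0 of 39 members against 7.45% of 9608 genes. The members nearest to 2-fold were FBXO27 at 1.94-fold lower, FBXO4 at 1.89-fold lower and FBXL22 at 1.86-fold higher. The median log2 ratio (non-lean over lean) was -0.08 for the tested members, with quartiles of -0.37 and 0.34, and -0.01 for all tested genes, with quartiles of -0.39 and 0.34. Scaling by total counts adds 0.14 to every ratio, so that each ratio given here between -0.14 and 0 lies above 0 under it, and it put the family median at 0.07 and that of all tested genes at 0.13. The median size of the ratio, sign aside, was 0.36 for the members and 0.37 for all tested genes. The middle of the F-box distribution thus lay close to that of all tested genes.

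**Figure D1:**
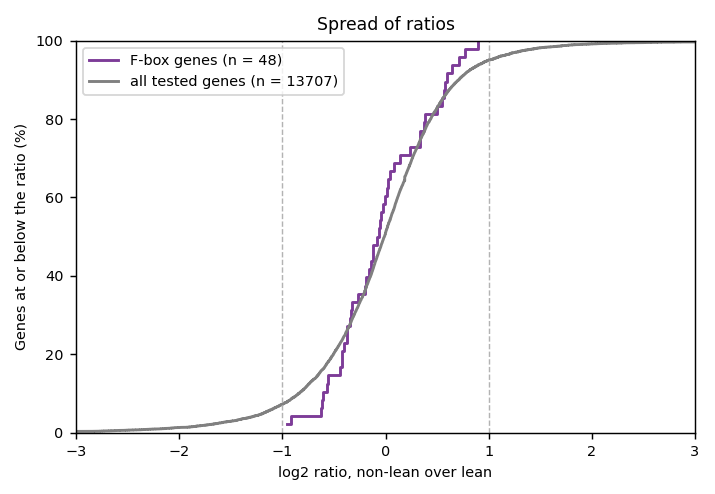
Share of genes (%) at or below each log2 ratio (non-lean over lean), for the 48 tested F-box genes and all 13707 tested genes; dashed lines mark 2-fold. The F-box curve starts at -0.96 and ends at 0.89, inside both dashed lines, while the curve of all genes runs beyond them on both sides.

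At a limit of 1.5-fold, 8 of the 48 members were apart, which is 16.7% of them, against 27.3% of all tested genes. Of these, 4 were higher (8.33%, against 11.9% of tested genes) and 4 lower (8.33%, against 15.4%). The 4 higher members were FBXL22, FBXO44, FBXO8 and FBXO9, and the 4 lower were FBXO27, FBXO4, FBXO31 and FBXW11. Under total count scaling, 8 were higher and 2 lower, and FBXO31 and FBXW11, at -0.48 each, were no longer among the lower. Scaling by DESeq2 size factors, which shifts every ratio by -0.03, gave 3 higher and 6 lower. By the interval alone, with no limit on size, 10 members lay above 0 (20.8%, against 25.7% of tested genes), 16 lay below 0 (33.3%, against 28.8%), and the intervals of 22 held 0. Under total count scaling, 15 lay above 0 and 8 below. The 1.5-fold and interval shares of all tested genes, here and below, are for the trimmed mean scaling. They were not counted under total counts or DESeq2 size factors, so the 1.5-fold and interval counts under those scalings have no share to be set beside. Among the subfamilies, the tested FBXO genes had a median of -0.01 over 27 genes, the FBXL genes one of -0.07 over 14 and the FBXW genes one of -0.14 over 7, which under total count scaling were 0.13, 0.07 and 0.00.

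**Figure D2:**
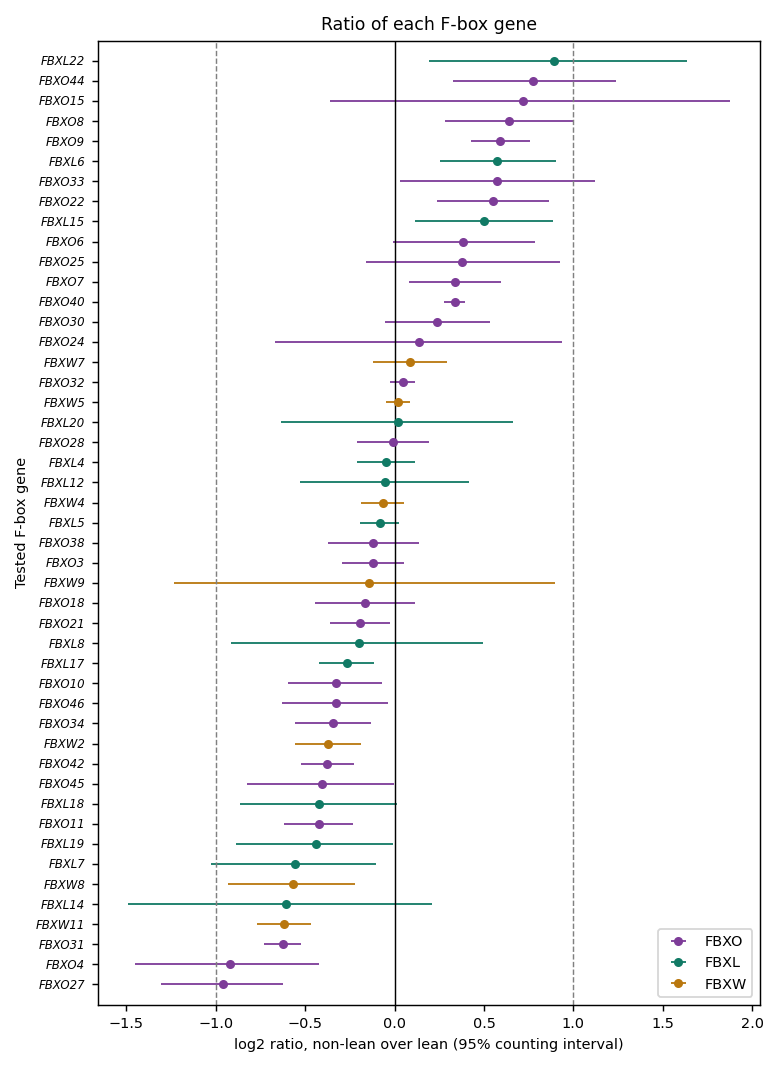
Log2 ratio (non-lean over lean) of 47 of the 48 tested F-box genes, with the 95% counting interval, ordered by ratio and coloured by subfamily; dashed lines mark 2-fold. Points run from FBXO27 at -0.96 to FBXL22 at 0.89, and none lies beyond a dashed line.

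FBXO32, the atrophy ligase atrogin-1, was at nearly the same level in both libraries. Its counts were 3272 in the non-lean library and 3609 in the lean library, which after scaling is 245 CPM in the non-lean and 237 CPM in the lean library. The log2 ratio was 0.05, with an interval of -0.02 to 0.11, which holds 0. Scaled by total counts, its ratio was 0.19 with an interval of 0.12 to 0.26, which lies above 0, where the median of all tested genes was 0.13.

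FBXO40 was 1.26-fold higher in the non-lean library, at the upper quartile of all tested genes, which was 0.34 as a log2 ratio. Its counts were 5330 in the non-lean library and 4808 in the lean library, or 399 CPM in the non-lean and 316 CPM in the lean library, a log2 ratio of 0.34 with an interval of 0.28 to 0.39. The quotient of FBXO40 to FBXO32 counts needs no scaling, and it was 1.63 in the non-lean library (exact 95% interval 1.56 to 1.70) and 1.33 in the lean library (1.28 to 1.39). The intervals of the quotient in the 2 libraries did not overlap, and they cover counting error only. The quotient restates, without scaling, the ratios of the 2 genes and adds no support to them.

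Both genes stood among the 3 members with the most reads. FBXO40 ranked 1, FBXW5 ranked 2 and FBXO32 ranked 3 of the 61 in the non-lean library and likewise in the lean library. FBXO40 took 21.2% of all F-box counts in the non-lean library and 16.6% in the lean library, and FBXO32 took 13.0% in the non-lean and 12.4% in the lean library. FBXW5, which has been linked to centriole duplication through SASS6, had 3463 counts in the non-lean library and 3885 in the lean library, a log2 ratio of 0.02 with an interval of -0.05 to 0.09. Together the 3 genes took 48.1% of F-box counts in the non-lean library (exact 95% interval 47.4 to 48.7) and 42.4% in the lean library (41.8 to 43.0). Counts grow with transcript length, and no transcript length was used here, so these ranks and shares are of reads and not of molecules.

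The whole family took 0.197% of the counts in the non-lean library (0.195 to 0.200) and 0.181% in the lean library (0.179 to 0.184). Scaled by the trimmed mean, the family summed to 1877 CPM in the non-lean library and 1906 CPM in the lean library. The family total was therefore higher in the non-lean library as a share of all counts and lower after the trimmed mean scaling. FBXO31 ranked 5 in the non-lean library and 4 in the lean library, and FBXL5 ranked 4 in the non-lean and 5 in the lean library.

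**Figure D3:**
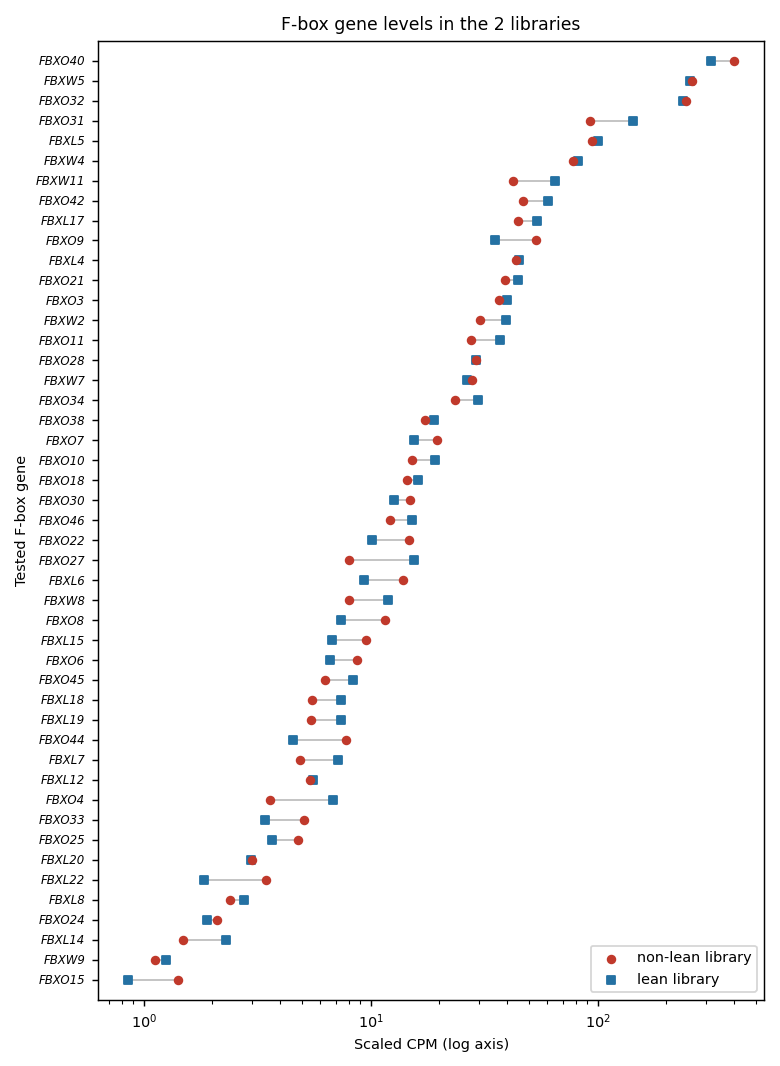
Scaled CPM on a log axis of 47 of the 48 tested F-box genes, with the non-lean library as a red circle and the lean library as a blue square, ordered by mean level. FBXO40, FBXW5 and FBXO32 stand above 230 CPM in both libraries and apart from FBXO31, the next gene, at 92.9 CPM in the non-lean and 143 CPM in the lean library; levels are not divided by length.

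The other members known from muscle went both ways. FBXO31, which targets cyclin D1, was 1.54-fold lower, with 1242 counts in the non-lean library and 2182 in the lean library and a log2 ratio of -0.63 (interval -0.73 to -0.53). It had the most reads of the 16 members with an interval below 0, in both libraries. Relative to FBXW5 its count quotient was 0.359 in the non-lean library (0.336 to 0.383) and 0.562 in the lean library (0.533 to 0.592). The ratio of FBXW5 was 0.02, so the quotient restates the ratio of FBXO31 and adds no support to it. FBXO30, known as MUSA1, a ligase of denervation atrophy in mice that BMP signalling holds down, had 199 counts in the non-lean library and 192 in the lean library, a ratio of 0.24 whose interval of -0.06 to 0.53 held 0. FBXO21, known in mice as SMART, had 522 counts in the non-lean library and 679 in the lean library, a ratio of -0.19 (-0.36 to -0.03).

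FBXL22, which acts on alpha-actinin and filamin at the Z-disc of mouse heart and muscle, was highest among tested members by ratio. It rested on 46 counts in the non-lean library and 28 in the lean library, a ratio of 0.89 with a wide interval of 0.19 to 1.64. In the reference gene table its position overlaps another protein-coding gene, and unstranded reads of overlapping genes cannot be told apart. FBXO25, the closest relative of FBXO32, had 64 counts in the non-lean library and 56 in the lean library, a ratio of 0.38 whose interval of -0.16 to 0.92 held 0. FBXL21, which acts on the Z-disc protein TCAP in mouse muscle, had 0 counts in both libraries, which allows up to 0.224 CPM in the non-lean and 0.197 CPM in the lean library at 3 counts. Over the 7 tested members of the muscle group the median ratio was 0.24, beside -0.01 for all tested genes. Of their intervals, 2 lay above 0 (FBXL22 and FBXO40, against 25.7% of all tested genes) and 2 below 0 (FBXO31 and FBXO21, against 28.8%). Under total count scaling the median was 0.38, beside 0.13 for all tested genes, with 4 intervals above 0 and 1 below.

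Members with roles in iron sensing and mitochondria had ratios from -0.08 to 0.34. FBXL5, the iron sensor that removes the iron regulatory protein IREB2, had 1263 counts in the non-lean library and 1523 in the lean library, a ratio of -0.08 (-0.19 to 0.02). FBXL4, a protein of the mitochondrial outer membrane that restrains mitophagy through BNIP3 and BNIP3L, had 584 counts in the non-lean library and 686 in the lean library, a ratio of -0.05 (-0.21 to 0.12). Both ratios were above 0 under total count scaling. FBXO7, which binds the proteasome regulator PSMF1 and is linked to parkin, had 262 counts in the non-lean library and 236 in the lean library, a ratio of 0.34 (0.08 to 0.60). FBXL15, grouped with them here and a ligase for the SMURF1 ligase, had 128 counts in the non-lean library and 103 in the lean library, a ratio of 0.50 (0.11 to 0.89), and under total count scaling it was 1.56-fold higher. Its position overlaps PSD in the reference table.

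Members with roles in the cell cycle and signalling lay mostly below 0. The group was chosen with earlier results of these data known, so its direction is a description only. Of 15 tested genes, 8 had intervals below 0 (28.8% of all tested genes did), 0 above (25.7% did), and 7 held 0, and the median ratio was -0.38 beside -0.01 for all tested genes. FBXO4, which with FBXO31 is linked to cyclin D1, was lowest, with 48 counts in the non-lean library and 104 in the lean library, a ratio of -0.92 (-1.45 to -0.42). FBXW11, a beta-TrCP protein that targets beta-catenin and the NF-kB inhibitor, had 566 counts in the non-lean library and 990 in the lean library, a ratio of -0.62 (-0.77 to -0.47). Its close relative BTRC, whose symbol falls outside the rule, had 204 counts in the non-lean library and 261 in the lean library, a ratio of -0.17 (-0.44 to 0.10). FBXW8, which works with the cullin CUL7, had 107 counts in the non-lean library and 181 in the lean library, a ratio of -0.57 (-0.93 to -0.22). CUL7 itself had 243 counts in the non-lean library and 401 in the lean library, a ratio of -0.54 (-0.77 to -0.30).

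Beside FBXO31, which also counts in that group, the other intervals below 0 were those of FBXL7, an Aurora kinase ligase, at -0.55, FBXO11, a ligase for BCL6, at -0.42, FBXO42 at -0.38 and FBXW2 at -0.37. FBXW7, the ligase for cyclin E, had 375 counts in the non-lean library and 402 in the lean library, and its ratio of 0.09 was the highest of the 15, with an interval of -0.12 to 0.29. FBXW4, FBXO3 and FBXO28 had ratios of -0.07, -0.12 and -0.01 whose intervals held 0, and all 3 were above 0 under total count scaling. Under total count scaling the group had 7 intervals below 0 and 2 above, and under DESeq2 size factors 8 below and 0 above. The group median was -0.23 under total count scaling, beside 0.13 for all tested genes. FBXO5, an inhibitor of the anaphase-promoting complex in cycling cells, had 12 counts in the non-lean library and 14 in the lean library and was not tested. Its relative FBXO43 had 3 counts in the non-lean library and 0 in the lean library, both at or under the floor of 3 counts, and is given no fold.

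The members grouped here as glycoprotein-binding differed in direction among themselves. They share a related segment, which in some of them recognises N-linked glycans on misfolded proteins. FBXO27 was the lowest tested member of the whole family, with 107 counts in the non-lean library and 237 in the lean library, a ratio of -0.96 (-1.30 to -0.63). FBXO44 had 104 counts in the non-lean library and 69 in the lean library, a ratio of 0.77 (0.33 to 1.24), and FBXO6 had 116 in the non-lean and 101 in the lean library, a ratio of 0.39 whose interval of -0.01 to 0.79 held 0. FBXO2 had 3 counts in the non-lean library and 4 in the lean library. The quotient of FBXO44 to FBXO27 counts was 0.972 in the non-lean library (0.735 to 1.28) and 0.291 in the lean library (0.219 to 0.382). It restates, without scaling, the highest and the lowest ratio of the group's tested members and adds no support to them.

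FBXO6, FBXO44 and FBXO2 are neighbours on chromosome 1 of the reference table, where FBXO44 and FBXO2 overlap, and FBXO27 lies beside FBXO17 on chromosome 19. The files list FBXO17 under a placeholder symbol, so it is not among the 61. Under that placeholder it had 113 counts in the non-lean library and 174 in the lean library, a ratio of -0.43 (-0.79 to -0.09), on the same side of 0 as its neighbour FBXO27.

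Of the 17 tested members outside these groups, 5 had intervals above 0 and 6 below 0, with a median of -0.16, where 25.7% of all tested genes lay above and 28.8% below. FBXO9, linked to mTOR signalling through TELO2, had 714 counts in the non-lean library and 539 in the lean library, a ratio of 0.59 (0.43 to 0.76), and its rank by reads was 7 in the non-lean library and 15 in the lean library. FBXO8, which carries a Sec7 segment, had 155 counts in the non-lean library and 113 in the lean library, a ratio of 0.64 (0.28 to 1.01). FBXL6 at 0.57, FBXO33 at 0.57 and FBXO22, a ligase for histone demethylases, at 0.55 were also above 0. FBXL6 overlaps TMEM249 in the reference table, and FBXO9 overlaps genes with placeholder symbols. Lower members overlap other genes as well, among them FBXO46 with MEIOSIN and, in the cell cycle group, FBXO11 with MSH6. The 6 below 0 were FBXL17, which checks the pairing of BTB proteins, at -0.27, FBXO10 at -0.33, FBXO46 at -0.33, FBXO34 at -0.34, FBXO45 at -0.41 and FBXL19, which binds CpG islands, at -0.44. The intervals of FBXO45 (-0.83 to 0.00) and FBXL19 (-0.89 to -0.01) barely lay off 0, as did that of FBXO33 (0.03 to 1.12) among the higher. The leading transcript model of FBXL19 held 72.8 estimated counts in the non-lean library and 72.5 in the lean library. Under total count scaling, 0 of these 17 intervals lay below 0 and 5 above.

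The members best known from testis, brain or other tissues were barely detected. Of the 9 found in the files, 2 were tested, FBXO24 with 28 counts in the non-lean library and 29 in the lean library, and FBXO15 with 19 in the non-lean and 13 in the lean library, and both intervals held 0. FBXL13, FBXO39, FBXO16, FBXL16, FBXO41 and FBXO47 had 0 to 11 counts in the non-lean library and 1 to 8 in the lean library. FBXW12 had 0 counts in the non-lean library and 5 in the lean library, too few for the interval to lie off 0. The remaining untested members were FBXO48, with 3 counts in the non-lean library and 5 in the lean library, and FBXL2, with 6 in each. The reference table matches no transcript of that FBXL2 row and gives the symbol to another gene, which the files list under a placeholder with 3 counts in each library.

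Estimated counts are divided among transcript models, and the division differed between the libraries for some members. FBXO32 has a single model in the files. FBXO40 has 5, and its leading model held 89.9% of the gene's counts in the non-lean library (4790 estimated counts) and 64.0% in the lean library (3076). Its next models held 348 and 191 estimated counts in the non-lean library, against 670 and 1023 in the lean library. With the leading model alone FBXO40 ranked 1 in the non-lean library and 3 in the lean library. The gap in the leading model was wider than that in the gene total, and the part that the division of reads among models plays in it was not tested.

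Of the 29 tested members with at least 2 models that had counts, 5 had a different leading model in each library, which is 17.2%, against 31.5% of 7769 such tested genes. These were FBXO21, FBXO4, FBXO38, FBXO44 and FBXL8. For FBXO21 the model that led in the non-lean library held 99.5% of the counts there, against 39.9% in the lean library, and another model had 0 estimated counts in the non-lean and 403 in the lean library. For FBXO4 the model that led in the non-lean library held 91.1% there and 6.83% in the lean library. FBXO38, whose gene total had a ratio of -0.12 with an interval that held 0, had 79.2% of its counts in the non-lean library on a model with 0 in the lean library. For FBXO9 a model with 307 estimated counts in the non-lean library had 3.88 in the lean library, a larger gap than that of the gene total, while the leading model was the same in both.

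**Figure D4:**
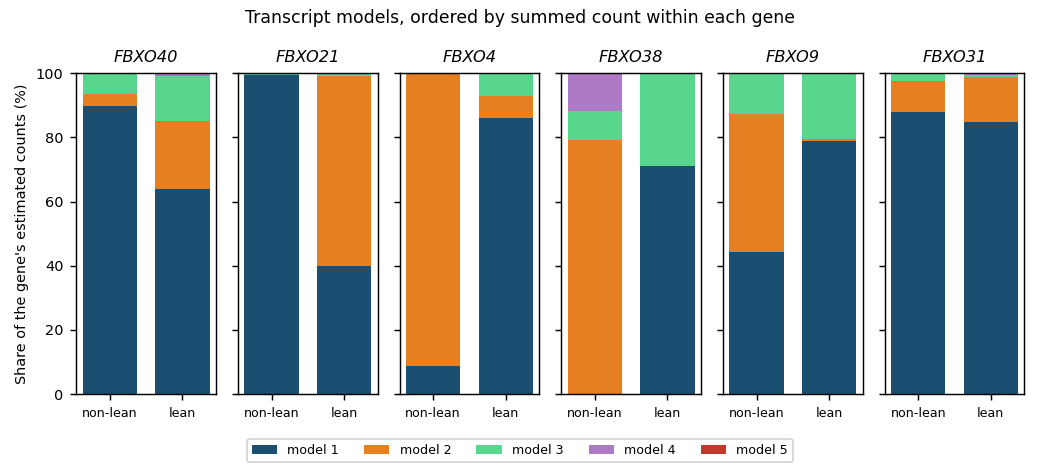
Share (%) of each gene's estimated counts on its transcript models in the non-lean and the lean library, for 6 F-box genes; models are numbered within each gene by summed count. FBXO21, FBXO4 and FBXO38 have a different leading model in each library, while FBXO31 keeps the same one at 88.0% in the non-lean and 84.7% in the lean library.

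The SCF core and its ubiquitin-conjugating enzymes differed by less than 1.5-fold in every tested gene. Of 10 tested genes of the SCF core and its ubiquitin-conjugating enzymes, 5 had intervals above 0 (25.7% of all tested genes did) and 2 below (28.8% did), 0 were 2-fold apart (12.1% were), and the median was 0.07. A count of 0 among so few genes says little. The adaptor SKP1 had 2514 counts in the non-lean library and 2600 in the lean library, a ratio of 0.14 (0.06 to 0.22), and the scaffold CUL1 had 1223 in the non-lean and 1455 in the lean library, a ratio of -0.06 (-0.18 to 0.05). RNF7 at 0.28 and CDC34 at 0.27 were the highest, and CUL7 at -0.54 and UBE2R2 at -0.12 the lowest.

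NEDD8 is the ubiquitin-like protein that switches cullins on, the COP9 signalosome takes it off again, and CAND proteins exchange the F-box subunits. Of 23 tested genes of this cycle, 8 had intervals above 0 (25.7% of all tested genes did) and 3 below (28.8% did), and the median was 0.09. NEDD8 was highest, with 808 counts in the non-lean library and 527 in the lean library, a ratio of 0.80 (0.64 to 0.96). The COP9 subunit COPS9 followed at 0.73, and CAND1 at -0.43 and COPS4 at -0.32 were lowest. NEDD8 and COPS9 were the 2 of the 23 at least 1.5-fold higher (11.9% of all tested genes were), and 0 were 1.5-fold lower (15.4% were). CAND2, the muscle form, had a ratio of -0.04 (-0.13 to 0.06). Under total count scaling, which adds 0.14 to every ratio, 15 lay above 0 and 2 below, with no share of all tested genes counted beside them.

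Among F-box proteins with other symbols, 0 of 8 tested genes had an interval above 0 (25.7% of all tested genes did) and 2 had one below 0 (28.8% did), LMO7 at -0.42 and KDM2A at -0.22, and a median of -0.14, while under total count scaling 2 lay above 0 and 1 below. SKP2 had 31 counts in the non-lean library and 22 in the lean library, a ratio of 0.67 (-0.15 to 1.54), and CCNF had 16 in the non-lean and 32 in the lean library, a ratio of -0.79 (-1.78 to 0.09). Both are cell cycle proteins, and both intervals held 0.

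Other ubiquitin ligases of muscle went both ways, with quartiles of -0.46 and 0.22. Of 16 tested, 6 had intervals above 0 (25.7% of all tested genes did) and 7 below (28.8% did), with a median of -0.01, and 2 were at least 2-fold lower, beside the 7.16% of all tested genes that were. TRIM63, known as MuRF1, the partner of FBXO32 in most accounts of atrophy, had 2308 counts in the non-lean library and 2030 in the lean library, a ratio of 0.37 (0.28 to 0.46). Its count quotient to FBXO32 was 0.705 in the non-lean library (0.669 to 0.744) and 0.563 in the lean library (0.532 to 0.594). These intervals, of counting error only, did not overlap, but the quotient restates the ratios of the 2 genes and adds no support to them. TRIM54 at 0.66 and MUL1 at 0.42 were the highest. MDM2 had 36 counts in the non-lean library and 104 in the lean library, 2.52-fold lower, and TRIM55 had 254 in the non-lean and 650 in the lean library, 2.25-fold lower.

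Regulators named for FBXO32 ran from -0.85 to 1.59. FOXO1, a factor that switches on FBXO32 in atrophy, had 1007 counts in the non-lean library and 380 in the lean library, a ratio of 1.59 (1.42 to 1.77), and was at least 2-fold higher, as were 4.91% of all tested genes. It alone of the 13 passed that limit. Under total count scaling SMAD3 passed it too, at 1.04, where 12.1% of all tested genes were 2-fold apart in either direction. FOXO3, the factor most often linked to FBXO32, had 896 counts in the non-lean library and 1080 in the lean library, a ratio of -0.08 (-0.21 to 0.05). SMAD3 was higher at 0.90, and the glucocorticoid receptor NR3C1 at -0.85 and its target KLF15 at -0.76 were lowest. Of the 13, 3 intervals lay above 0 (25.7% of all tested genes did) and 6 below (28.8% did), with a median of -0.08, and under total count scaling 4 lay above 0 and 4 below.

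Genes of substrates and partners named for muscle F-box proteins mostly had ratios slightly below 0. Of 15 tested, 11 intervals lay below 0 (28.8% of all tested genes did) and 2 above (25.7% did), with a median of -0.14, and under total count scaling 6 lay below and 5 above. IRS1, the substrate named for FBXO40, was lowest, with 1171 counts in the non-lean library and 2030 in the lean library, a ratio of -0.61 (-0.71 to -0.50). MYOD1 and EIF3F, named for FBXO32, were at -0.13 (-0.23 to -0.03) and -0.25 (-0.33 to -0.17). The intermediate filament gene VIM, 2.82-fold higher, and TCAP at 0.59 were the highest. IREB2 was at -0.37 beside FBXL5 at -0.08. These are mRNA levels, and protein levels were not measured in these files.

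**Figure D5:**
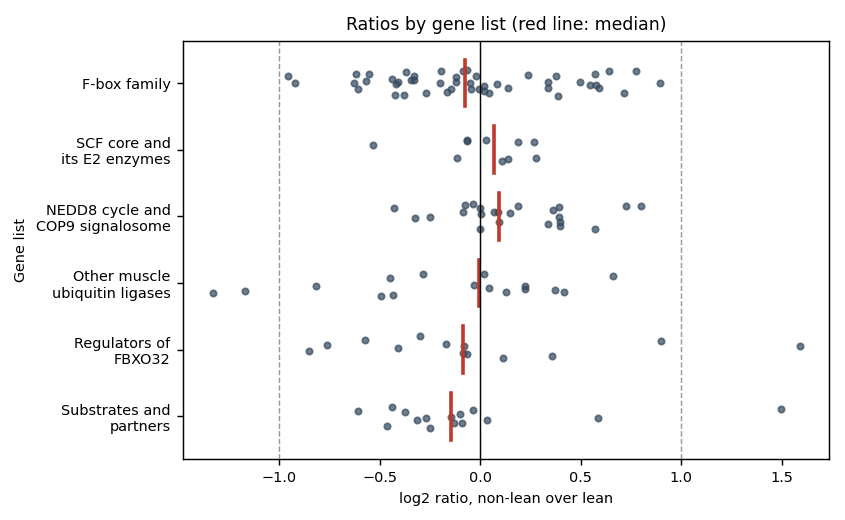
Log2 ratio (non-lean over lean) of each tested gene in the F-box family and in 5 related lists, with the median as a red line and 2-fold as dashed lines; vertical scatter within a list has no meaning. The F-box points stay within 2-fold, while the other muscle ligases reach -1.33 (MDM2) and the regulators reach 1.59 (FOXO1).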

How the data were processed

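Per the file headers, the deposited values are expected counts (read estimates, in part not whole), 1 per RefSeq transcript model with its gene symbol. RSEM 1.3.3, STAR 2.7.8a and Trim Galore 0.6.6 are listed, with no role, in the submitters' processing notes; the build is not given in the sources used here. Per the labels' protocols, poly(A) RNA was copied from random hexamers and read on a BGISEQ-500 with no step that marks strand.

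Within each gene, transcript values (76183 in each file) were added up and rounded; 24 symbols turned into dates were separated by accession. Scaling used the trimmed mean of M-values (edgeR 4.0.16, R 4.3.3; factors 1.05 non-lean, 0.952 lean). Python 3.11.15 with scipy 1.17.1 computed log2 ratios (prior count 0.5) and exact 95% Clopper-Pearson intervals of the binomial split. The computation was checked on counts simulated with counting error alone, which cannot show how the intervals hold under other error. Since PCR copies are not separate molecules, intervals and floors hold counting error alone. Alternatives were total counts, DESeq2 1.42.0 size factors, a prior count of 2, no filter, a minimum of 5 CPM, a fold of 1.5 and the leading model only. Every family member could be named; from other lists, the 2 highest, the 2 lowest and partners of named members. Members and lists were chosen with earlier results of these data known. Names, neighbours and overlaps came from a RefSeq table of T2T-MFA8v1.1, in which 59 of 61 members were found; FBXL21 and FBXO18 were not. Older symbols of list genes were matched through accessions. No transcript length was used. The values of 1 tested member are not reported here, although it counts in the family's totals.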

Additional observations from a re-analysis of the deposited data

How the results depend on the processing

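Scaling by total counts raised the median of all tested genes by 0.14 on the log2 scale, and the share of higher genes among the 2-fold calls was 56.0%, against 40.7%. Under total counts 1 F-box gene, FBXL22, was 2-fold apart, beside 12.1% of 13725 tested genes. The family median was then 0.07, FBXO32 was at 0.19 and FBXO40 at 0.48. Relative to all tested genes the family median was -0.07 under total counts and -0.06 under the trimmed mean. Of the other members, 4 moved out of their counting interval under total counts (FBXL5, FBXO31, FBXW4 and FBXW5), and 8 of 48 changed sign, among them FBXL12, FBXL4, FBXL5, FBXO28, FBXO3, FBXO38 and FBXW4. Intervals above and below 0 numbered 15 and 8 under total counts and 10 and 18 under DESeq2 size factors, with no share of all tested genes counted beside them. DESeq2 size factors shifted every ratio by -0.03, and FBXL20 and FBXW5 changed sign under them. With a fold of 1.5 the count was 8. With the leading transcript row only, FBXO32 ranked 2 and FBXO40 ranked 3 in the lean library. The count stayed at 0 under DESeq2 size factors, a prior count of 2, no filter and a minimum of 5 CPM, and the family median ran from -0.12 to -0.07 there. Levels divided by transcript length were not run. No paired analysis was possible because each group has 1 library. Low counts limit FBXL22 and FBXO4 most among the members at least 1.5-fold apart.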
